A study of Mus musculus with 8 samples.

Results

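The genes described are 8 mouse genes of inflammatory and necroptotic cell death: the protease genes Casp1, Casp4 and Casp8, the inflammasome adaptor and sensor genes Pycard and Nlrp3, the pore gene Gsdmd, and the necroptosis genes Ripk3 and Mlkl. Members were found by matching the RefSeq accession of each gene probe to these symbols, which gave 11 probes for 7 of the 8 genes among 35078 gene probes. Mlkl had no matching gene probe and is not analysed here. Of the 7 genes, 5 (Casp1, Casp4, Casp8, Pycard and Gsdmd, with 8 probes) passed the filter on dim probes and were tested among 8875 named genes. The probes of Nlrp3 and Ripk3 were above background on none of the 8 arrays. The study set 4 mice given lipopolysaccharide (LPS, a cell-wall component of Gram-negative bacteria) at 5 mg/kg into the peritoneum against 4 mice given saline by the same route. All were female C57BL/6 mice, an inbred strain, aged 12 weeks and kept on chow. Hearts were rinsed with buffer through the vessels and taken 8 h after injection, and pieces of each heart gave the RNA for 1 single-colour spotted oligonucleotide array.

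An inflammasome is a cytosolic assembly in which a sensor such as NLRP3 recruits the adaptor ASC, the product of Pycard, to activate caspase-1. Caspase-1 matures interleukin-1β and interleukin-18 and cleaves gasdermin D, whose freed end forms pores in the plasma membrane and ends the cell by pyroptosis. Mouse caspase-11, encoded by Casp4, binds LPS in the cytosol and cleaves gasdermin D without an inflammasome sensor. Necroptosis runs from RIPK3 to its substrate MLKL, which breaks the membrane, and caspase-8 restrains that route while it also starts apoptosis downstream of death receptors. In the heart these genes are studied mainly for the cardiac dysfunction of endotoxemia and for injury after loss of blood flow.

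Signals on these arrays were weak. Between 37.3% and 42.6% of gene probes exceeded the negative-control limit on LPS arrays, and between 39.7% and 46.9% did on saline arrays. The limit, the 95th percentile of 94 negative-control spots, lay at 26.8 to 32.9 intensity units on LPS arrays and 25.9 to 40.5 on saline arrays. The brightest array was saline 1, so levels below are given on a log2 scale after normexp background correction with an offset of 50 and quantile normalization, which gives all arrays the same distribution. LPS 3 stood apart from the other LPS arrays: its log2 levels over the tested genes and unnamed probes correlated at 0.938 to 0.960 with the saline arrays, where the other LPS arrays gave 0.895 to 0.920. Heart muscle markers were present: 9 of 10 had a probe, and all 9 were measured, none of them called. Their log2 changes with LPS ran from -0.85 to -0.06, with a median of -0.33. Their summed normalized intensity was 167270 to 206127 in LPS hearts and 214703 to 297637 in saline hearts.

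Casp4, Gsdmd, Casp1 and Casp8 rose with LPS, and Pycard did not pass the test. Gsdmd rose 2.87-fold by its brighter probe, Casp1 1.96-fold and Casp8 1.66-fold. The fitted change of Casp4 was 3.29-fold by its brighter probe, which was above background on 1 of 4 saline arrays, and its dimmer probe set the rise at no less than 1.62-fold. A gene was called where its Benjamini-Hochberg adjusted p in limma, a linear model fitted over all tested genes and unnamed probes, was under 0.05. So 4 of the 5 tested members were called higher and 0 lower, against 9.74% of all tested genes called higher and 9.77% called lower. Without LPS 3 all 4 kept their calls, with log2 changes of 2.02 for Casp4, 1.66 for Gsdmd, 1.22 for Casp1 and 0.84 for Casp8 (limma adjusted p 9.62e-06 to 0.00114). With the slide series as a block, the change rests on LPS 1 against the 4 saline arrays, because LPS 2 to 4 had no saline array in their series. It was 2.07 for Casp4, 1.51 for Gsdmd, 1.27 for Casp1 and 0.76 for Casp8, and the calls of Casp1 and Casp8 were lost. The same 4 genes were the members whose LPS arrays all lay above their saline arrays, as did those of 11.2% of all tested genes, while 23.5% had groups apart in either direction. The median log2 change of the 5 tested members was 0.97, beside -0.05 for all tested genes. Casp4 entered the test through its LPS arrays, and the members were chosen with earlier results of these data known. The share called and this median are therefore a description of the members and not a test of them as a set. Since this is bulk tissue, more cells that carry a transcript and more transcript per cell cannot be told apart.

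Casp4, the cytosolic LPS receptor of the mouse, had log2 levels of 8.40, 8.20, 7.13 and 8.47 on LPS arrays 1 to 4, against 6.31, 6.56, 6.23 and 6.21 on saline arrays 1 to 4 (probe mMC009638). The lowest LPS array, LPS 3, lay above the highest saline array, and the probe was above background on all 4 LPS arrays but on 1 saline array, so it entered the test through the LPS arrays. The group means were 8.05 ± 0.62 in LPS hearts and 6.33 ± 0.16 in saline hearts (SD, n = 4 each). The log2 change was 1.72 (SE 0.27, limma adjusted p = 0.00197). An offset of 16 in place of 50, which shrinks dim signals less, gave 2.30. A second Casp4 probe, mMA031507, read 7.18, 7.33, 6.82 and 7.39 on LPS arrays and 6.11, 5.97, 5.95 and 6.01 on saline arrays. It was above background on 4 LPS arrays and 0 saline arrays, so it entered the test only through the LPS arrays and bounds the change. With each saline array raised to its lowest level above background, Casp4 was at least 1.62-fold higher with LPS. The fitted log2 change without that bound was 1.17 (SE 0.14, limma adjusted p = 0.000504 among 14914 probes fitted separately). On both probes the LPS arrays lay above the saline arrays, whose values were near background.

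The promoter of Casp4 is printed because Casp4 had the largest fitted change of the tested members, and that of Casp1 because it is the adjacent protein-coding gene on chromosome 9, with Casp12 on the other side of Casp4. Each run of 300 bases covers 250 bases before to 50 bases after the annotated start, from RefSeq on build GRCm38.p6, plus strand, 5′ to 3′, and capitals mark matches to a form of the NF-κB site, GGG and TTTCC with any 2 bases between. The first region is chr9:5308599-5308898 and the second is chr9:5298267-5298566.
Casp4: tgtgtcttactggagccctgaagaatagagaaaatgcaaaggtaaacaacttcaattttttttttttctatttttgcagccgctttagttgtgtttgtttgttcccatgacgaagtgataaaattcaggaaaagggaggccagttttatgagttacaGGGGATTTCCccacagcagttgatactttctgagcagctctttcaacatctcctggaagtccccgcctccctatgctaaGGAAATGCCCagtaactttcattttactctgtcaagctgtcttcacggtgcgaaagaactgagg
Casp1: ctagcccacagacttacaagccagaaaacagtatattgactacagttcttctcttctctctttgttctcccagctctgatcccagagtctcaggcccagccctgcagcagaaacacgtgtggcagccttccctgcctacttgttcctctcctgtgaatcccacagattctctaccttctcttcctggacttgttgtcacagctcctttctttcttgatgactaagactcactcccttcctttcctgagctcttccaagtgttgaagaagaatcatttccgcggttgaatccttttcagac

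In the Casp4 promoter GGGGATTTCC ran from base -93 to -84 relative to the start, and GGAAATGCCC, which matches on the other strand, ran from -14 to -5. Among 32851 promoters of the same length, 1.63% held at least 1 match to this form on either strand. The table also held promoters of Casp8, Pycard, Nlrp3, Ripk3 and Mlkl, but not of Gsdmd. None of these others matched it. No promoter searched here, and that of Gsdmd was not, matched the core of the interferon-stimulated response element on either strand. That core is 2 copies of GAAA with any 2 bases between (3.44% of all promoters). None matched TTCNNNGAA, the interferon-γ-activated site (8.3%). The 2 matches in Casp4 do not overlap, and from a second annotated start they ran from -104 to -95 and from -25 to -16. A match is a run of letters and not a measured binding site, and the absence of one concerns only these 300 bases.

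Gsdmd, the pore-forming protein cleaved by caspase-1 and caspase-11, had log2 levels of 10.25, 10.45, 9.86 and 10.50 on LPS arrays 1 to 4, against 8.61, 8.60, 8.84 and 8.93 on saline arrays 1 to 4 (probe mMC025581). Every LPS array was higher than every saline array, with a gap of nearly 1 log2 unit between the groups. The means were 10.27 ± 0.29 in LPS hearts and 8.74 ± 0.17 in saline hearts (SD, n = 4 each), a log2 change of 1.52 (SE 0.16, limma adjusted p = 0.00024). A dimmer Gsdmd probe, mMC004998, read 6.59, 6.70, 6.55 and 6.72 on LPS arrays and 6.55, 6.31, 6.38 and 6.35 on saline arrays. This probe was above background on 4 LPS arrays and 1 saline array, its groups touched at 6.55, and its change of 0.24 did not pass (SE 0.11, limma adjusted p = 0.161). The 2 probes therefore disagree in size, and averaging them gave a change of 0.88 (limma adjusted p = 0.000981). The size given for Gsdmd holds for the brighter probe alone.

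Casp1, the protease of the canonical inflammasome, had log2 levels of 9.33, 9.36, 8.27 and 9.16 on LPS arrays 1 to 4, against 8.13, 8.01, 7.84 and 8.26 on saline arrays 1 to 4. The groups barely separated, since LPS 3 was at the level of saline 4. The means were 9.03 ± 0.51 in LPS hearts and 8.06 ± 0.18 in saline hearts (SD, n = 4 each), a log2 change of 0.97 (SE 0.23, limma adjusted p = 0.0165). Before normalization the groups overlapped: LPS 1 was brightest and LPS 2 to 4 gave 474, 208 and 296 intensity units over background, against 503, 233, 142 and 253 on saline arrays 1 to 4. The limma call of Casp1 was lost with LPS 2 left out (0.86, adjusted p = 0.0538) and also when slide series was a block (1.27, adjusted p = 0.0663).

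Casp8, the initiator caspase of death receptors and a brake on necroptosis, had log2 levels of 8.64, 8.66, 8.29 and 8.87 on LPS arrays 1 to 4, against 7.82, 7.83, 7.87 and 7.99 on saline arrays 1 to 4. All LPS arrays were above the saline arrays, which lay close together. The means were 8.61 ± 0.24 in LPS hearts and 7.88 ± 0.08 in saline hearts (SD, n = 4 each), a log2 change of 0.74 (SE 0.14, limma adjusted p = 0.00529). The call was lost with the slide series, in which 3 LPS arrays had no saline array beside them, as a block (0.76, limma adjusted p = 0.0751). Its signal over background before normalization was 211 to 356 intensity units on LPS arrays and 146 to 382 on saline arrays.

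Pycard, the adaptor that links inflammasome sensors to caspase-1, had log2 levels of 7.36, 7.05, 7.16 and 7.06 on LPS arrays 1 to 4, against 6.80, 7.06, 7.21 and 7.16 on saline arrays 1 to 4 (probe mMC007341). The groups overlapped fully. The means were 7.16 ± 0.15 in LPS hearts and 7.06 ± 0.18 in saline hearts (SD, n = 4 each). The log2 change was 0.10, with a 95% interval of -0.20 to 0.39 (limma adjusted p = 0.647). A second Pycard probe gave -0.03 (SE 0.12, limma adjusted p = 0.878), and both were above background on all 8 arrays.

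Nlrp3, the inflammasome sensor that inflammatory signals induce in macrophages, could not be measured. Its probes gave 1 to 10 intensity units over local background on LPS arrays and -1 to 8 on saline arrays, all under the negative-control limit. Ripk3, the kinase of necroptosis, gave -2 to 3 units on LPS arrays and -6 to 2 on saline arrays. In a fit without the filter, where 10.3% of 15597 named genes were called, the log2 changes were 0.07 for Nlrp3 (limma adjusted p = 0.698) and 0.04 for Ripk3 (limma adjusted p = 0.751). At this signal a level or a change of either transcript was not detectable. No spot of any member was saturated or marked bad.

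**Figure D1:**
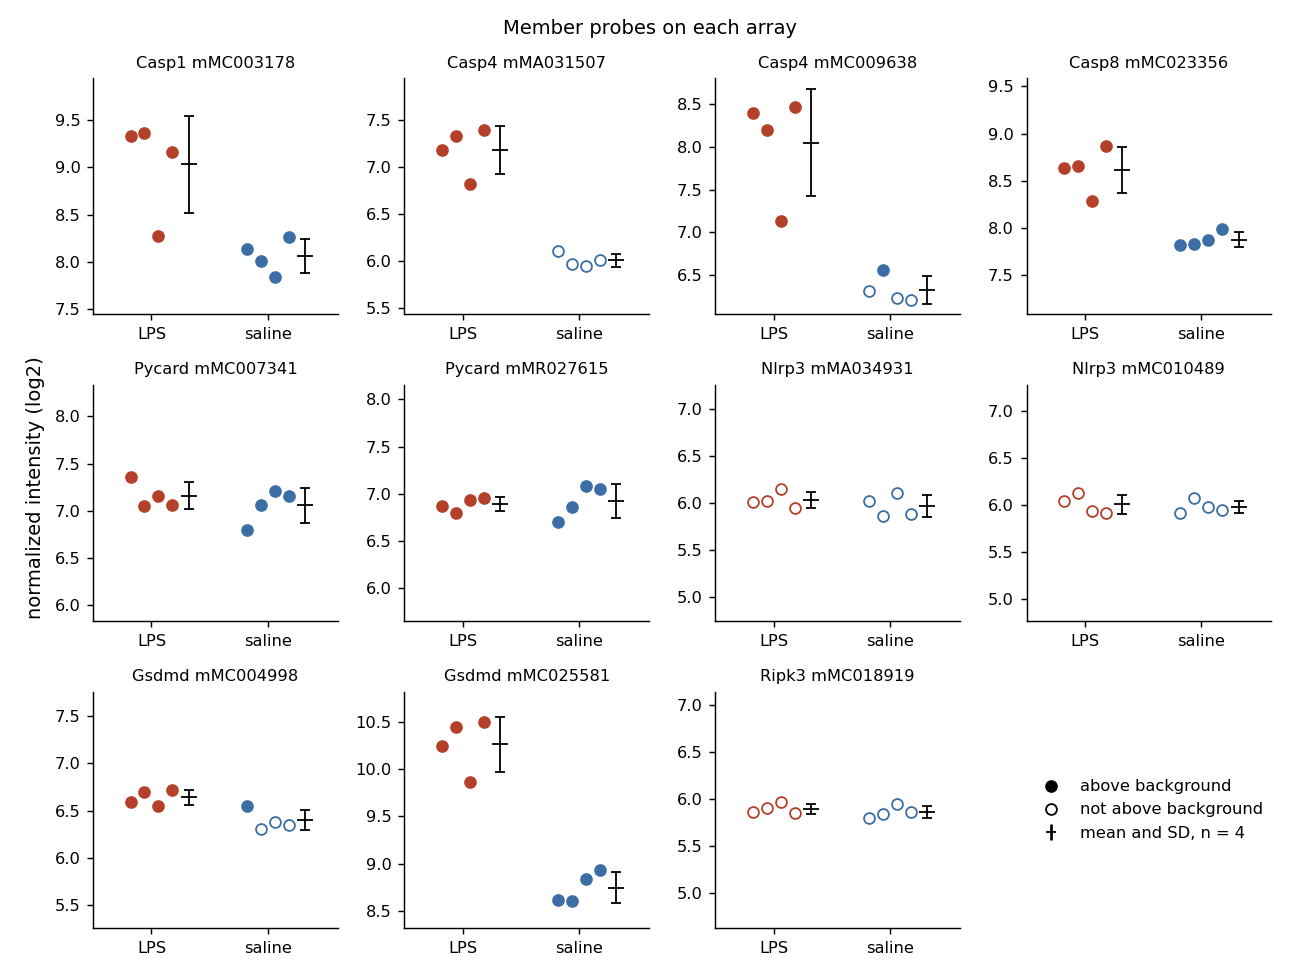
Normalized log2 intensity (y axis) of all 11 member probes, 1 panel each, on the 4 LPS arrays (red) and the 4 saline arrays (blue), with mean and SD; open circles are spots not above background. LPS and saline points are apart for Casp1, Casp8, both Casp4 probes and the brighter Gsdmd probe, while the Pycard points overlap and every Nlrp3 and Ripk3 spot is open.

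Differences between members in the size of their change depended on the probe for Casp4 and Gsdmd. For each of the 10 pairs of tested members the difference of their log2 values was compared between LPS and saline arrays by a two-sided exact permutation test over the 70 arrangements of 8 arrays, in which the smallest possible p is 0.0286. With the brighter probe of each gene, Casp4 changed by 0.75 more than Casp1 (SE 0.17) and by 0.98 more than Casp8 (SE 0.23). Gsdmd changed by 0.79 more than Casp8 (SE 0.07). Casp4, Gsdmd and Casp8 changed more than Pycard, by 1.62 (SE 0.35), 1.42 (SE 0.20) and 0.64 (SE 0.17). These 6 differences each had the smallest p, 0.0286 by the exact test and 0.0477 adjusted over the 10 pairs. Casp1 against Pycard (0.87, SE 0.30) and Gsdmd against Casp1 (0.55, SE 0.18) gave an adjusted p of 0.0714 in the exact permutation test. Casp1 against Casp8 differed by 0.24 (SE 0.19, adjusted p = 0.254) and Casp4 against Gsdmd by 0.20 (SE 0.24, adjusted p = 0.4571) in that test. With the dimmer Casp4 probe, which like the brighter one was near background in saline hearts, the difference from Casp1 was 0.20 (SE 0.17, adjusted p = 0.4115 over 12 such comparisons) and that from Casp8 0.43 (SE 0.07, adjusted p = 0.049) in the same exact test. That probe was above background on 0 saline arrays, so these differences use saline values under the limit and cannot be sized. At its bound of 1.62-fold, Casp4 did not exceed Casp8, at 1.66-fold. With the dimmer Gsdmd probe the difference from Casp8 turned to -0.49 (SE 0.12, adjusted p = 0.049), and with the mean of both probes it was 0.15 (SE 0.06, adjusted p = 0.0761), by the exact test. The dimmer Gsdmd probe read 30 to 37 units over background on LPS arrays, near the negative-control limit. It was above background on 1 saline array, so the size of its change is limited by background. Against Pycard, Gsdmd stood at 0.14 with the dimmer probe (SE 0.17, adjusted p = 0.4676, exact test) and Casp4 at 1.07 (SE 0.21, adjusted p = 0.049, exact test). The same limits of the dimmer probes hold for these values.

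**Figure D2:**
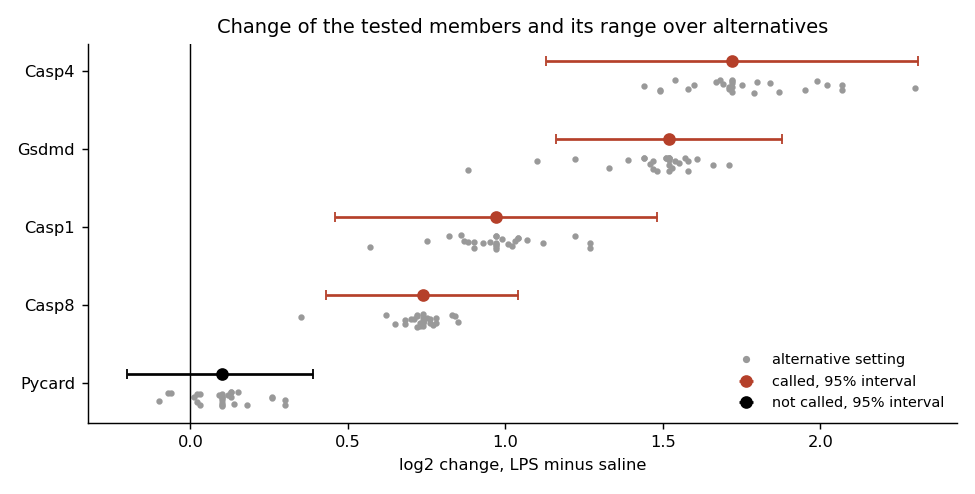
Log2 change, LPS minus saline (x axis), of the 5 tested members with the 95% interval of the limma fit, and below each, in grey, its value under each alternative setting. The intervals of Casp4, Gsdmd, Casp1 and Casp8 lie above 0 and that of Pycard spans it; the grey points of Casp1 reach down to 0.57 and those of Casp8 to 0.35.

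Among the LPS hearts, LPS 3 had the lowest level of Casp4, Gsdmd, Casp1 and Casp8, that is, of 4 of the 5 tested members. Relative to the saline mean, Casp4 stood at 2.07, 1.87, 0.80 and 2.14 on LPS arrays 1 to 4 and Casp1 at 1.27, 1.30, 0.21 and 1.10. Gsdmd stood at 1.51, 1.71, 1.12 and 1.76 and Casp8 at 0.76, 0.78, 0.41 and 0.99. The interferon-inducible GTPase genes Gbp5 and Irgm1 were also lowest on LPS 3 among LPS arrays, at 10.25 and 10.49 against 11.02 to 12.19 and 12.03 to 12.86 on the other three. Il1b and Bcl2a1d were instead highest there, at 7.93 and 9.93. By the Pearson correlation of log2 levels over the 8 arrays, in 2 separate groups of 4, the genes most like Casp4 were Myd88 (r = 0.9973), Upp1, Adam9, Slc15a3 and Glipr2 (r = 0.9919). These values are a description; 470 tested genes had r above 0.9 with Casp4, as arrays in separate groups readily give.

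**Figure D3:**
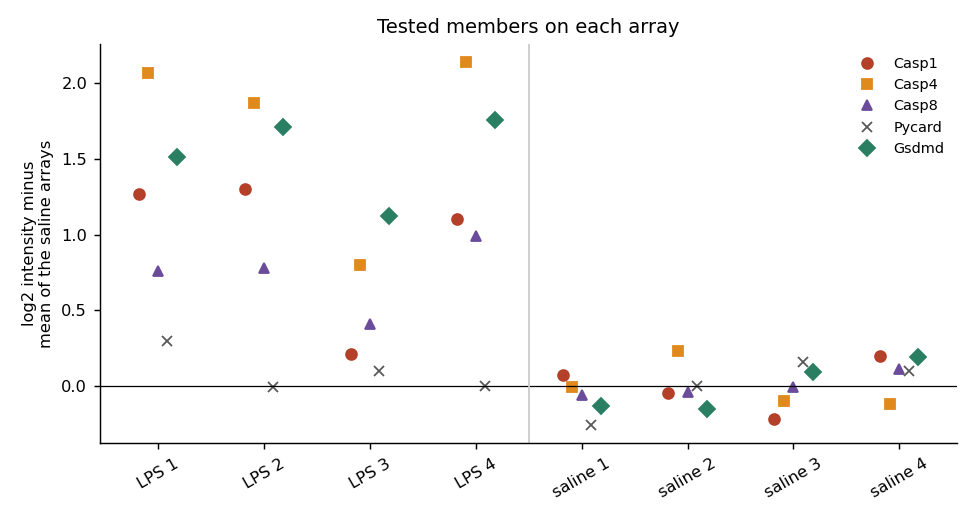
Log2 level of the 5 tested members on each array minus that gene's mean over the 4 saline arrays (y axis), with LPS arrays left of the line. LPS 3 is the lowest LPS array for Casp4 (0.80), Gsdmd (1.12), Casp8 (0.41) and Casp1 (0.21), and Pycard stays between -0.26 and 0.30 on all arrays.

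The scan day, the slide series and a mark, redip, in the file names were each used as a batch. The mark was on LPS 2 and 4 and saline 2 and 4, while scan days and slide series held the groups unevenly. Within the first day of scanning, with 3 LPS and 2 saline arrays, the log2 changes were 1.71 for Casp4 (limma adjusted p = 0.0613), 1.39 for Gsdmd (0.029), 0.88 for Casp1 (0.179) and 0.68 for Casp8 (0.104), and Pycard stood at -0.10. On the second day LPS 1 exceeded saline 2 by 1.84 for Casp4, 1.65 for Gsdmd, 1.32 for Casp1, 0.81 for Casp8 and 0.30 for Pycard. The third day held saline 1 alone. On the 4 arrays marked redip all 4 genes passed, at 1.95, 1.71, 1.12 and 0.85 in that order (limma adjusted p 0.00228 to 0.0252). On the 4 arrays without the mark they stood at 1.49, 1.33, 0.82 and 0.62 and none passed (limma adjusted p 0.0985 to 0.452). In the second slide series, LPS 1, its single LPS array, stood 2.07, 1.51, 1.27 and 0.76 above the mean of the 4 saline arrays; these are values with no test, since no LPS spread was measured there. What redip stands for is not given.

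Scaling moved the smaller changes. With arrays scaled to equal medians over all gene probes, the median of all genes shifted to -0.35 and 348 genes were called higher and 1126 lower, beside 864 and 867. The call of Casp1 (0.57, adjusted p = 0.21) and that of Casp8 (0.35, adjusted p = 0.216) ended in limma. Casp4 (1.54, adjusted p = 0.00792) and Gsdmd (1.10, adjusted p = 0.0145) kept theirs. Median scaling over the tested probes gave 1.87, 1.44, 0.90 and 0.68 for Casp4, Gsdmd, Casp1 and Casp8, all called.

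Partner genes of the inflammasome and of pyroptosis mostly rose where they could be measured. Of 44 listed genes 34 had a probe and 16 were tested. Of these 10 rose, 1 fell and 5 did not pass, so that 68.8% were called, beside 19.5% of all tested genes. The median log2 change was 0.77. Setting the genes dim on all saline arrays at their bound could not move it, since those bounds also lie above it. Because a gene silent in saline hearts enters the test only through its LPS level, this share describes the genes that passed the filter and not the list. The largest rises were in GTPases that act at bacterial and vacuolar membranes. Gbp5 had log2 levels of 12.19, 11.02, 10.25 and 11.84 on LPS arrays, against 7.45, 7.42, 7.94 and 7.56 on saline arrays, a change of 3.73 (SE 0.36, limma adjusted p = 0.000143; another probe gave 2.29). Irgm1 rose by 3.32 (SE 0.41) and Gbp3 by 3.26 (SE 0.33), with limma adjusted p of 0.000521 and 0.000169. Gbp3 belongs to a family of close paralogs, and the probes' sequences were not used here to tell them apart.

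Il1b, the main substrate of caspase-1, read 7.36, 7.49, 7.93 and 7.18 on LPS arrays and 6.12, 6.20, 6.45 and 6.19 on saline arrays. No saline array was above background, so Il1b entered the test only through the LPS arrays. As a bound, Il1b was at least 2.01-fold higher with LPS. The limma adjusted p of 0.000827 belongs to the fit without that bound, and the bound itself was not tested. The other named partners were mostly unmeasured: Il18, Il1a, Casp12 and Gsdme had probes above background on no array, Il1rn did not pass the filter, and Aim2 and Nlrc4 had no matching probe. Txnip, which binds thioredoxin and has been tied to NLRP3, had a change of 0.78 that did not pass (SE 0.28, limma adjusted p = 0.0819). Nlrp10, a family member without the usual sensor repeats, was the gene that fell (-0.43, SE 0.12, limma adjusted p = 0.0386). Its call ended without any 1 array other than LPS 3 or saline 3 (adjusted p 0.06 to 0.107), and under median scaling of each array (-0.77, adjusted p = 0.0572).

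Partners of necroptosis and death receptor signalling rose in part, with the largest rises in Tnfaip3, Ikbke and Birc3. Of 43 listed genes 40 had a probe and 32 were tested, of which 14 rose, 0 fell and 18 did not pass. That is 43.8% called, beside 19.5% of all tested genes, with a median log2 change of 0.34. As in the inflammasome list, this share describes the genes that passed the filter, which LPS levels alone could meet. Counted without LPS 2, without saline 1 or without saline 2, 9 rose. Over all tested genes 621, 683 and 625 rose in those fits, beside 864 with all arrays. Under median scaling over all gene probes 6 of the list and 348 of all tested genes rose. Tnfaip3, the ubiquitin-editing enzyme A20 that limits NF-κB and RIPK1 signalling, read 12.31, 11.65, 11.34 and 11.81 on LPS arrays and 7.34, 7.28, 7.29 and 7.47 on saline arrays, a change of 4.43 (SE 0.19, limma adjusted p = 9.16e-07). Ikbke, a kinase of innate signalling, rose by 1.97 (SE 0.17, limma adjusted p = 6.73e-05). Birc3, a ubiquitin ligase that marks RIPK1, rose by 1.93 (SE 0.25, limma adjusted p = 0.000664).

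Ripk1, the kinase upstream of RIPK3, read 7.34, 7.48, 6.95 and 7.46 on LPS arrays and 6.54, 6.82, 6.59 and 6.75 on saline arrays. The groups did not overlap, and the change was 0.63 (SE 0.15, limma adjusted p = 0.0146). The receptor genes rose less evenly. Tnfrsf1a, which encodes TNF receptor 1, rose by 0.96 (SE 0.25, limma adjusted p = 0.0267; another probe gave 1.38), and Fas by 0.43 (SE 0.12, limma adjusted p = 0.0317; another probe gave 0.71). The limma call of Tnfrsf1a was lost without LPS 2 or 4 and without saline 1, 2 or 4 (adjusted p 0.0536 to 0.0751). Leaving out any 1 array other than LPS 4 ended that of Fas (adjusted p 0.051 to 0.0872). Median scaling over all gene probes ended the limma calls of Ripk1 (adjusted p = 0.0649), Tnfrsf1a (0.215) and Fas (0.517), and so did the slide series as a block, with adjusted p of 0.132, 0.348 and 0.113. Zbp1, a sensor that activates RIPK3, did not pass the filter, and Cflar, the caspase-8 regulator, had probes above background on no array.

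Genes of apoptosis moved in both directions. All 46 listed genes had a probe and 35 were tested, of which 9 rose, 5 fell and 21 did not pass. That is 40% called, beside 19.5% of all tested genes, with a median log2 change of 0.01. Genes dim in saline hearts could enter through their LPS level here too, so this share describes the genes that passed the filter. The largest rises were in inhibitors of apoptosis of the BCL-2 family. Bcl2a1d read 9.37, 9.38, 9.93 and 9.28 on LPS arrays and 6.82, 6.69, 6.96 and 6.78 on saline arrays, a change of 2.68 (SE 0.16, limma adjusted p = 7.58e-06). Bcl2a1a rose by 1.61 (SE 0.16, limma adjusted p = 0.000181), with 1 saline array above background, so it entered the test through the LPS arrays. Bcl2a1d and Bcl2a1a are near-identical copies and their probes may share transcripts, so the split between them is uncertain. Bcl2l1, which encodes BCL-XL, rose by 1.55 (SE 0.20, limma adjusted p = 0.000685; both other probes gave smaller values), and Mcl1 stood at -0.05 (SE 0.18, limma adjusted p = 0.867).

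Casp6, an executioner caspase, read 7.88, 8.00, 8.49 and 7.76 on LPS arrays and 8.82, 8.77, 9.02 and 8.72 on saline arrays, and fell by 0.80 (SE 0.16, limma adjusted p = 0.00853). The call of Casp6 was lost with the slide series as a block (-0.95, limma adjusted p = 0.0607) and within the first scan day (-0.79, limma adjusted p = 0.113). The initiator Casp9 stood at -0.08 (SE 0.17, limma adjusted p = 0.788). Bax, an effector of mitochondrial permeabilization, rose by 0.49 (SE 0.14, limma adjusted p = 0.0388), and the mitochondrial nuclease gene Endog fell by 0.78 (SE 0.23, limma adjusted p = 0.04). With the slide series as a block Bax stood at 0.19 (limma adjusted p = 0.615) and Endog at -0.94 (limma adjusted p = 0.177). The call of Bax ended without any 1 array other than LPS 1 or saline 3 (adjusted p 0.0528 to 0.109), and that of Endog without any 1 array other than LPS 4 (adjusted p 0.0518 to 0.107). With LPS 2 or 4 or saline 1 or 2 left out, 4 genes of the list rose; the 5 that fell became 2 without LPS 2, 3 without LPS 4, 3 without saline 1, 1 without saline 2, 3 without saline 3 and 2 without saline 4.

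**Figure D4:**
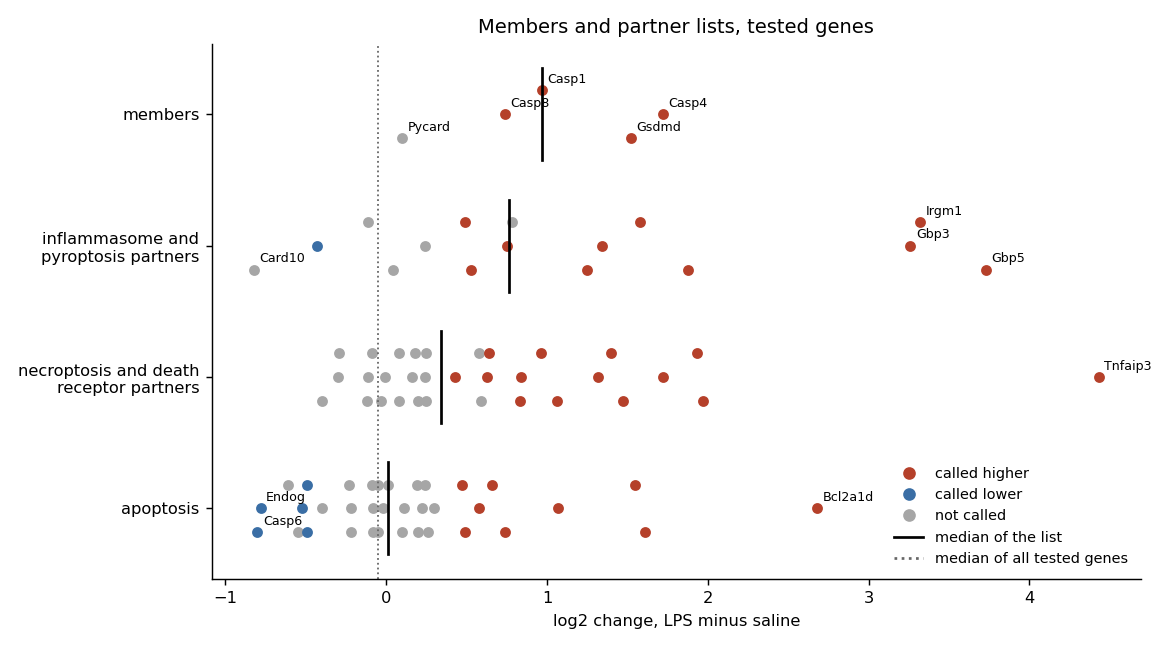
Log2 change, LPS minus saline (x axis), of the tested genes among the members and the 3 partner lists (rows), coloured by call, with the median of each list (black line) and of all 8875 tested genes (dotted, -0.05). The medians are 0.97, 0.77, 0.34 and 0.01 from top to bottom, and the partner lists hold larger rises than any member, up to 4.43 for Tnfaip3.

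Markers of other cells in the tissue were also measured. Of 12 neutrophil markers 6 were tested, of which S100a8, S100a9, Retnlg and Csf3r rose and 0 fell, and Cxcr2, Mmp8 and Ngp were above background on no array. Csf3r was above background on 0 saline arrays and so entered the test only through the LPS arrays, at least 1.32-fold higher there. S100a9 was above background on 2 saline arrays. The summed normalized intensity of the 6 tested markers was 1904 to 2529 in LPS hearts and 459 to 976 in saline hearts. Of 16 monocyte and macrophage markers 10 were tested, of which 0 rose and Lyz2, C1qa and C1qc fell, and Ccr2 was above background on no array. The sum of the 10 was 8045 to 9381 in LPS hearts and 10068 to 11241 in saline hearts. This sum is mostly Cd163, at a mean log2 level of 12.48 in LPS hearts and 12.55 in saline hearts, which was not called. Of 12 lymphocyte markers 2 were tested and 0 were called, with sums of 236 to 272 in LPS hearts and 207 to 278 in saline hearts. All 8 endothelial markers were tested, of which Tek and Egfl7 fell and 0 rose, with sums of 7123 to 11362 in LPS hearts and 11146 to 14847 in saline hearts. Of 7 fibroblast markers 6 were tested, of which Dcn rose and Col1a1 and Lum fell, with a median log2 change of -0.69. Their sums were 21437 to 26386 in LPS hearts and 16612 to 21129 in saline hearts. These sums are mostly Dcn, at a mean log2 level of 14.32 in LPS hearts and 13.84 in saline hearts. Its rise of 0.48 holds for the brightest probe alone, since the other Dcn probes gave -0.53, -0.14 and -0.42. Of 6 erythroid and platelet markers 5 were tested and 0 were called, with sums of 11014 to 27506 in LPS hearts and 17601 to 49016 in saline hearts. The part of these cells in the change of the members was not tested.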

How the data were processed

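Per the file headers, the deposited tables give intensity values of each spot and its surroundings in 1 colour (635 nm), exported by GenePix Pro 4.1.1.4 without normalization. The deposited value table was not used, because its identifiers matched 0 scanner spots and carry no gene names. Spot medians were corrected by normexp (offset 50, all spots), set to missing where marked bad, taken to log2 and quantile normalized over the 35078 gene probes with limma 3.58.1 in R 4.3.3. RefSeq accessions named 23071 probes by 1 symbol and left 12007 unnamed. Probes above the 95th percentile of 94 negative-control spots on at least 4 arrays were kept (14914), and the brightest stood for each gene (8875 genes, 3225 unnamed probes). LPS was compared with saline in 1 linear model without a block, at an adjusted p of 0.05, and the procedure was tested on simulated data. The depth of an array is not a count: the number of arrays limits the precision. The labels list the samples as separate mice.

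The members and lists were chosen with earlier results of these data known. Genes named are all members, the 3 largest called rises and 2 largest called falls of each partner list, and a fixed set, of which some are not reported here (Il1b, Il18, Il1a, Il1rn, Aim2, Nlrc4, Casp12, Txnip, Gsdme, Zbp1, Ripk1, Cflar, Fas, Tnfrsf1a, Casp6, Casp9, Bax, Bcl2l1 and Mcl1), with the 5 genes most correlated with the member that rose most. Markers named beside a count were chosen after their values were seen. Alternatives covered background correction, normalization, spot summary, filter, probe choice, prior, weights, batches, replicate number and each array left out. The fit of every probe, that of the dim members and the tests between members, with either probe, were added after the data were seen. Replicate numbers did not pair the arrays: deviations of same-numbered LPS and saline arrays from their group means correlated at 0.087, -0.136, 0.089 and -0.082.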

Additional observations from a re-analysis of the deposited data

Results flagged for a closer look

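In a group of 4 arrays, the gap of an extreme array to its nearest neighbour was compared with the range of the group for the member probes and named partner genes, where chance singles out about 1 group in 20; 58 groups were tested and 5 stood out, none of them a member. On LPS 3, Gbp3 lay at 10.70 with the next LPS array at 12.16 (gap over range 0.948), Bcl2a1d at 9.93 against 9.38 (0.837), and Nlrp10 at 7.75 against 7.60 (0.862). Casp9 was highest on LPS 3 too, with the next LPS array at 6.56 (0.98). On saline 4, Fas lay at 6.93 with the next saline array at 7.18 (0.949).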

How the results depend on the processing

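Over the alternatives run, Gsdmd changed by 0.88 to 1.71 on the log2 scale and passed in 27 of 28, Casp4 by 1.44 to 2.30 in 25 of 27, Casp8 by 0.35 to 0.85 in 24 of 28 and Casp1 by 0.57 to 1.27 in 23 of 28. None of these 4 reversed. The counts include the exact permutation test at its unadjusted p, and the fit within the second slide series, with 1 LPS array. Pycard ran from -0.10 to 0.30 and passed in 0 of 28. It reversed to -0.07 under median scaling over all gene probes, -0.06 within redip-marked arrays and -0.10 within the first scan day. The filter at 6 arrays dropped Casp4. With the slide series as a block, Casp1 (1.27, limma adjusted p = 0.0663) and Casp8 (0.76, limma adjusted p = 0.0751) did not pass. The replicate block kept all 4 member calls, moved the 5 apoptosis genes called lower to 2, ended the calls of Endog, Fas and Nlrp10 among the genes reported and gave one to Txnip; the arrays share only a number.

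Members called higher, 4 as reported, were 2 under median scaling over all gene probes, 2 with the slide series as a block, 1 within the first scan day, 0 within unmarked arrays and 3 to 4 with 1 array left out. Inflammasome partners called higher, 10 as reported, were 6 with the slide series as a block, 4 within the first scan day, 0 within unmarked arrays and 7 to 10 with 1 array left out. Those called lower, 1 as reported, were 2 with array weights, 0 under cyclic loess, the redip block, the trended and robust prior, unmarked arrays and the first scan day, and 0 to 2 with 1 array left out. Necroptosis partners called higher, 14 as reported, were 6 under median scaling over all gene probes, 8 with the slide series as a block, 6 within the first scan day, 8 within the second slide series, 1 within unmarked arrays and 9 to 15 with 1 array left out; those called lower, 0 as reported, were 1 within marked arrays and 1 within the second slide series. Apoptosis genes called higher, 9 as reported, were 4 under median scaling over all gene probes, 5 without the filter, 5 with the scan day as a block, 4 with the slide series as a block, 1 within unmarked arrays, 4 within the first scan day, 4 within the second slide series and 4 to 8 with 1 array left out. Those called lower, 5 as reported, were 1 with the slide series as a block, 2 within marked arrays, 0 within unmarked arrays, 0 within the first scan day, 2 within the second slide series and 1 to 5 with 1 array left out. The subsets hold fewer arrays, and the second slide series has 1 LPS array, which that fit assumes to vary like the saline arrays. With the slide series as a block, the change also rests on that 1 LPS array against the saline arrays. Otherwise the cause was not tested.

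Casp9 reversed to 0.20 with medians equalized over the tested probes, to 0.18 within unmarked arrays, and ran from -0.21 to 0.01 with 1 array left out. Mcl1 reversed to 0.01 under cyclic loess, 0.02 with the slide series as a block, 0.24 within unmarked arrays and 0.02 within the second slide series, and ran from -0.20 to 0.11 with 1 array left out. Neither passed anywhere. Over all genes 72 to 2285 were called, beside 1731. Signals near background limit Casp4, Nlrp3 and Ripk3.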
